A study of Mus musculus with 4 samples.

Results

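A listed set of 32 nuclear pore and nuclear transport genes was taken by symbol from the 23521 genes of the study's expression table. All 32 were matched, comprising 26 nucleoporins and 6 transport receptors or Ran. The data came from Hepa1-6, a mouse hepatoma line, measured by sequencing of polyadenylated RNA. The Control group (n = 2 libraries) received lentivirus with a scrambled shRNA and is labelled wild type. The Chd1KD group (n = 2 libraries) received lentivirus with an shRNA against Chd1, an ATP-dependent chromatin remodeler, and is labelled as a knock down. Both groups were transduced and then held under 4 μg/ml puromycin for 3 weeks, so every library comes from selected cells and no untransduced cells were compared. Whether each library had a transduction of its own is not stated, so all p-values below refer to library-to-library spread alone, and that spread may be purely technical.

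The nuclear pore complex is the channel through which proteins and RNAs pass between cytoplasm and nucleus. Its subunits, the nucleoporins, form stacked rings around a central channel, with filaments on the cytoplasmic face and a basket on the nuclear face. Importins and exportins carry cargo through the channel, and the GTPase Ran sets the direction by its GTP-bound form in the nucleus. In dividing cells the envelope and its pores are taken apart and rebuilt at each mitosis, and several of these genes also act at kinetochores or on chromatin.

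Values are RPKM, read numbers scaled to transcript length and to all mapped reads, summed over the RefSeq transcripts of a gene. Sequencing depth is unknown because the tables hold no counts. Summed RPKM was 459381 to 484490 per library. Of the 11 matched hepatocyte or hepatoma markers, Ttr was listed at 0 in every library and Apoa1 stayed at or below 0.37 RPKM, while Krt18 (620.9 to 743.0 RPKM) and Apoe (784.4 to 2023 RPKM) were abundant. The summed RPKM of these markers, most of it from Apoe and Krt18, was 2415 and 3295 in Control and 1868 to 2202 in Chd1KD. Apoe had a ratio of 0.57 and Krt18 of 0.84 between Chd1KD and Control, whereas Afp (29.9 and 39.7 RPKM against 55.2 and 58.3 RPKM) had 1.63 and Alb had 1.28, and none of these 4 passed the test (limma, adjusted p 0.18, 0.11, 0.077 and 0.54). Of the 9 tested markers of this list, 7 were lower and Afp was higher in both Chd1KD libraries than in either Control library. Of all tested genes, 30.5% were lower and 21.3% higher in this way. The groups overlapped for Alb (18.6 and 55.6 RPKM in Control, 42.2 and 53.0 RPKM in Chd1KD). The Control libraries also differed from each other for Apoe (1222 and 2023 RPKM). The part of these markers in the results below was not tested. Matched markers of macrophages (5), endothelium (6), stellate cells or fibroblasts (6) and lymphocytes (6) reached at most 0.58 RPKM in any library, and 3, 5, 4 and 6 of them were listed at 0 in all 4 libraries. Across genes, Pearson's r between the Control libraries was 0.992, below the 0.994 between Control replicate 2 and Chd1KD replicate 2. In bulk RNA, fewer cells with a transcript and less RNA per cell cannot be told apart.

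Chd1 itself was lower in the Chd1KD libraries, as labelled. It stood at 21.4 and 22.5 RPKM in Control, and at 10.4 and 11.3 RPKM with the Chd1 shRNA. The groups did not overlap, and Chd1 fell to 0.49 times Control, a log2 fold change of -0.96 with SE 0.07 (adjusted p = 0.012 by limma; 0.25 in the fit without a filter on low values). Here and below, a ratio is the Chd1KD mean RPKM over the Control mean, a fold change is on the log2(RPKM + 1) scale, and a gene passed the test at a Benjamini-Hochberg adjusted p under 0.05 over all 10209 tested genes.

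Across the 32 pore and transport genes, 1 passed the test. Sec13, a subunit of the outer rings, rose to 1.37 times Control. No member passed in the downward direction. Of all tested genes, 0.46% passed in either direction, 0.274% upward and 0.186% downward. For 26 of the 32 members the ratio lay between 0.9 and 1.1, as it did for 64.2% of all tested genes. The median log2 fold change of the members was -0.05, against -0.02 over all tested genes, and the median absolute change was 0.091 against 0.092. All 32 members passed the filter of a mean of at least 1 RPKM, and every member but Xpo1 exceeded that level in each of the 4 libraries.

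The groups did not overlap for 23 members, 9 higher and 14 lower in Chd1KD, which is 71.9% of the members against 51.8% of all tested genes (21.3% higher, 30.5% lower). Before adjustment, 5 members had p under 0.05, which is 15.6% of them against 18.5% of all tested genes. Sec13 was the higher one (7.24% of all tested genes were higher at that level), and Nup37, Nup43, Rae1 and Nup210 were lower (11.3%). A negative fold change was found for 20 members and for 56.5% of all tested genes. For the 29 members other than Sec13, Nup210 and Xpo1, the ratios ran from 0.84 to 1.09 and the adjusted p from 0.16 to 0.96. Their 95% intervals on the log2 scale lay within -0.40 and 0.27. Among these 29 genes, the intervals of Nup43 (-0.40 to -0.07), Nup37 (-0.38 to -0.02) and Rae1 (-0.31 to -0.00085) lay below 0 before any adjustment.

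The count of members that passed moved with the settings, as did the share of all tested genes. No member passed without a filter on low values (0% of all tested genes), when the variance trend was dropped (0.0588%), when each gene was represented by its most abundant transcript (0.118%) or without Chd1KD replicate 1 (0.48%). Sec13 and Nup210 passed with the replicate number as a block (3.18%) and without Control replicate 2 (2.31%). Without Control replicate 1 the log2 fold change of Sec13 was 0.48. Sec13 alone passed with a robust trend (0.901%), with other scalings (0.441%) and at a mean of at least 5 RPKM (0.921%). Nup210 was not tested at that mean. Sec13 was also the only member to pass when genes at 0 in some but not all libraries were left out (0.736%), a fit without Xpo1. Without Chd1KD replicate 2 it was Xpo1 alone (1.2%), which is listed at 0 in the Chd1KD library that then remains.

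Levels of the members spanned a wide range. Since RPKM is scaled to transcript length, levels can be set side by side between genes. Control means ran from 3.85 RPKM for Nup210 to 446.6 RPKM for Ran, with a median of 38.3 RPKM against 12.9 RPKM over all tested genes. Ran, Kpna2, Ipo7, Kpnb1 and Sec13 exceeded 100 RPKM in every library, and 25 other members lay between 10 and 100 RPKM in every library. Ran ranked highest and Kpna2 next in each of the 4 libraries. Sec13 ranked 5 of 32 in both Control libraries and 3 of 32 in both Chd1KD libraries, passing Ipo7 and Kpnb1. The replicates of a group were close: the median absolute log2 difference between the Control libraries was 0.070 for members and 0.095 for all tested genes, and between the Chd1KD libraries 0.049 and 0.068. In Control, 24 of the 32 members were lower in replicate 2 than in replicate 1, and in Chd1KD 9 were. The median log2 difference of replicate 2 from replicate 1 in Control was -0.070 for members and -0.031 for all tested genes. In Chd1KD it was 0.021 for members and -0.0052 for all tested genes.

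**Figure D1:**
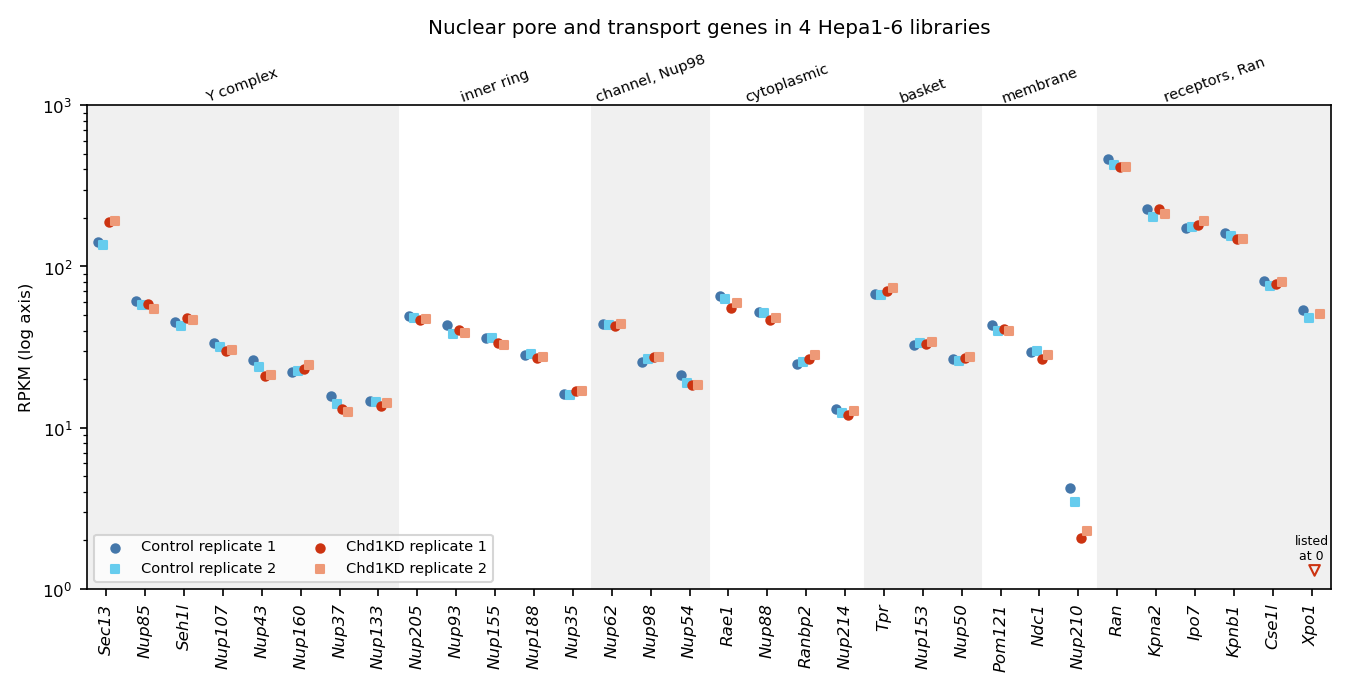
RPKM on a log axis for each of the 32 genes, grouped by role, with 1 point for each of the 2 Control and 2 Chd1KD libraries. Points of a gene nearly coincide except for Sec13, Nup210 and Xpo1, whose Chd1KD replicate 1 is listed at 0 and drawn as an open triangle at the axis.

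The outer rings of the pore are built from Y-shaped complexes, represented here by 8 genes. Sec13, a small beta-propeller protein that is also part of the COPII coat of vesicles leaving the endoplasmic reticulum, was the most abundant of them. It was at 142.9 and 135.8 RPKM in the Control pair, and at 188.8 and 191.8 RPKM in the Chd1KD pair. Both Chd1KD libraries lay above both Control libraries, with means of 190.3 ± 2.08 and 139.3 ± 5.01 RPKM (SD, n = 2 each). This difference of 0.45 on the log2 scale (SE 0.06, adjusted p = 0.041, limma) had rank 30 by p among all tested genes. The call was lost in some settings. Among them were the fits without Chd1KD replicate 1 and without Chd1KD replicate 2, with log2 fold changes of 0.46 and 0.44. Further ones left the log2 fold change at 0.45 but raised the adjusted p (limma). It was 0.25 without a filter on low values and 0.083 when the variance trend was dropped. With each gene represented by its most abundant transcript it was 0.070, although Sec13 was listed with 1 transcript only.

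The upstream sequences of Sec13 and Nup210 are shown because these genes, the latter a membrane ring subunit described further on, lay furthest from Control among the members with values in all libraries. Both are on mouse chromosome 6 (RefSeq, GRCm38.p6), on the minus strand, and protein-coding. Sec13 spans 113728052 to 113740681 and Nup210 spans 91013067 to 91118322. The sequences are the 250 bases before a RefSeq start, chr6:113740682-113740931 for Sec13 and chr6:91116827-91117076 for Nup210, where the start lies within the gene's annotated span. They read 5′ to 3′ on the gene's strand. Capitals mark matches to a GC box (GGGCGG or its complement CCGCCC), an ETS motif (CCGGAAGT) or an E2F motif (TTTCCCGC).
Sec13: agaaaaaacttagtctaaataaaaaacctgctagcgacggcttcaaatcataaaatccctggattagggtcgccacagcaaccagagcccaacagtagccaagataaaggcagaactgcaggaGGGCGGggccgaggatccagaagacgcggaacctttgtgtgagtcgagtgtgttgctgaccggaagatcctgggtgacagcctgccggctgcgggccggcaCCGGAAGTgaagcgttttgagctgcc
Nup210: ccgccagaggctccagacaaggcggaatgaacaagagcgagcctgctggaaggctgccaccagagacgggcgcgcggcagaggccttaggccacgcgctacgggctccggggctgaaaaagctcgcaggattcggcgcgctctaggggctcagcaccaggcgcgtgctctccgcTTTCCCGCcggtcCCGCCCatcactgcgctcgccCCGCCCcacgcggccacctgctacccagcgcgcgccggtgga
The Sec13 sequence is 54.4% G and C with 14 CpG dinucleotides, and the Nup210 sequence 71.2% with 30. A match is a description of letters and not evidence of a bound factor.

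The other 7 genes of the Y complex did not pass. Nup43 and Nup37, small propeller subunits of the complex, had the lowest ratios. Nup43 gave 26.2 and 23.6 RPKM (Control) against 21.0 and 21.1 RPKM (Chd1KD), a ratio of 0.84 (limma, adjusted p = 0.16). It lies wholly within the span of Pcmt1 (20.5 to 22.8 RPKM), and no source used here says whether strand was used, so these genes may share reads. Nup37 stood at 15.7 and 14.0 RPKM in Control, and at 13.0 and 12.5 RPKM with the Chd1 shRNA, a ratio of 0.86 (limma, adjusted p = 0.23). For both genes the Chd1KD libraries lay below the Control libraries.

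The scaffold genes Nup107, Nup85 and Nup133 had ratios of 0.92, 0.95 and 0.96, and Nup160 had 1.07. Seh1l, a propeller protein shared with the nutrient-sensing GATOR2 complex as Sec13 is, was at 45.5 and 42.4 RPKM in the Control pair, and at 48.2 and 46.5 RPKM in the Chd1KD pair, a ratio of 1.08 (limma, adjusted p = 0.40). It was listed with a pair of transcripts, and the less abundant one held 26.5% to 31.4% of the gene in each library. Within this complex, then, values on both sides of Control were found, and 1 of 8 genes differed beyond the test.

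Each Y complex gene was also set against the median of the other 7 in the same library, a ratio that does not depend on library scaling. Sec13 stood at 5.44 and 5.75 times that median in Control and at 8.13 and 7.84 times in Chd1KD. For the other 7 genes the mean of this ratio in Chd1KD was 0.92 to 1.16 times that in Control. Nup160 had the highest of these and Nup43 the lowest.

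**Figure D2:**
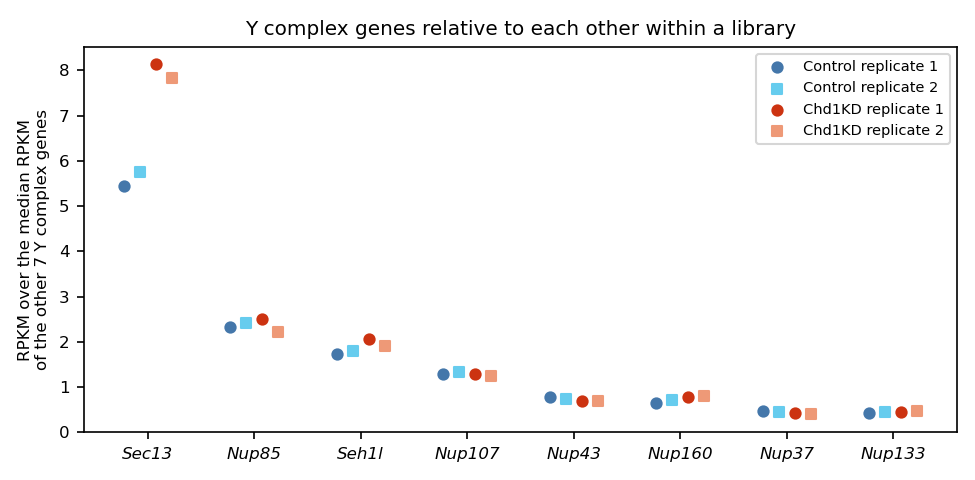
RPKM of each of the 8 Y complex genes divided by the median RPKM of the other 7 in the same library, with 1 point per library. Sec13 lies at 5.44 and 5.75 in Control and at 8.13 and 7.84 in Chd1KD, and the points of the other genes lie close together.

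Because Sec13 serves in other complexes, genes of those complexes were looked up after its value was seen, and they carry no weight as a list. Of 11 tested genes of the COPII coat and its assembly, none passed the test (limma), and 1, Sec24a, had an unadjusted p under 0.05. Sec31a, the direct partner of Sec13 in the coat, gave 48.0 and 47.2 RPKM (Control) against 50.5 and 51.2 RPKM (Chd1KD), a ratio of 1.07 (limma, adjusted p = 0.40). Sec24a, a cargo-binding subunit, had 9.35 ± 0.64 RPKM in Control and 11.4 ± 1.02 RPKM in Chd1KD (SD, n = 2 each), and did not pass (adjusted p = 0.19, limma). The GATOR2 genes Mios, Wdr24 and Wdr59 had ratios from 0.94 to 0.97, none with an unadjusted p under 0.05, and the smallest adjusted p among them was 0.61 (limma).

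The inner ring, which anchors the channel to the pore membrane, was represented by 5 genes, and none passed. Nup155 stood at 35.8 and 36.1 RPKM in Control, and at 33.4 and 32.5 RPKM with the Chd1 shRNA, a ratio of 0.92 (limma, adjusted p = 0.31). Its groups did not overlap. The large scaffold proteins Nup188 and Nup205 had ratios of 0.96 and 0.97, Nup93, which links the ring to the channel, had 0.96, and Nup35, a membrane-binding subunit, had 1.05. Replicates of Nup188 and Nup35 differed by little, with SDs of 0.19 and 0.16 RPKM for Nup188 and of 0.12 and 0.11 RPKM for Nup35.

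In the central channel, Nup62 and Nup54 carry the phenylalanine-glycine repeats that form the permeability barrier. Nup62 was at 43.9 and 43.1 RPKM in the Control pair, and at 42.5 and 44.1 RPKM in the Chd1KD pair, so its groups overlapped and its ratio was 0.995 (limma, adjusted p = 0.96; 95% interval of the log2 fold change -0.14 to 0.13). It overlaps Atf5 (22.1 to 25.2 RPKM) and Il4i1b, with which it may share reads. Nup54 had a ratio of 0.92. Nup98, whose transcript encodes both Nup98 and the scaffold protein Nup96, gave 25.5 and 26.7 RPKM (Control) against 27.5 and 27.5 RPKM (Chd1KD), a ratio of 1.05 (limma, adjusted p = 0.55). None of the 3 genes passed.

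On the cytoplasmic face, where exported mRNA and proteins are released, none of 4 genes passed. Rae1, an mRNA export factor that also acts in the mitotic checkpoint, stood at 65.7 and 62.5 RPKM in Control, and at 55.2 and 59.8 RPKM with the Chd1 shRNA, a ratio of 0.90 (limma, adjusted p = 0.27). Nup88 was at 52.4 and 51.5 RPKM in the Control pair, and at 46.6 and 48.1 RPKM in the Chd1KD pair, a ratio of 0.91 (limma, adjusted p = 0.27). Both genes were lower in each Chd1KD library than in either Control library. Of the 4 transcripts listed for Nup88, 1 held 68.3% to 75.7% of the gene and another 23.8% to 31.5% in each library, with no separation of the groups. Nup214, the binding partner of Nup88, had a ratio of 0.97. Ranbp2, the large filament protein with SUMO ligase activity, ran the other way, from a Control pair of 24.8 and 25.7 RPKM to 26.6 and 28.2 RPKM in Chd1KD, a ratio of 1.09 (limma, adjusted p = 0.36).

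The nuclear basket, which faces chromatin, had a positive value for each of its 3 members, and none of the 3 passed. Tpr, the coiled-coil protein that forms the basket, gave 67.5 and 66.7 RPKM (Control) against 70.0 and 73.1 RPKM (Chd1KD), a ratio of 1.07 (limma, adjusted p = 0.42). Nup50 and Nup153, which bind importins and chromatin, had ratios of 1.04 and 1.02. The groups did not overlap for Tpr and Nup50 and overlapped for Nup153. The median log2 fold change of these 3 genes was 0.05.

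The membrane ring holds the pore in the nuclear envelope. Nup210, a transmembrane glycoprotein whose level differs widely between cell types, was the least abundant of the 32 genes and had the lowest ratio of the members with values in all 4 libraries. It stood at 4.25 and 3.44 RPKM in Control, and at 2.08 and 2.28 RPKM with the Chd1 shRNA. Both Chd1KD libraries lay below both Control libraries, with means of 2.18 ± 0.14 and 3.85 ± 0.57 RPKM (SD, n = 2 each), or 0.57 times Control. At this low level the fold change depended on the amount added to RPKM before the log. It was -0.69 with 0.5 added and -0.79 with 0.1 added, and neither passed (adjusted p = 0.082 for both, limma). With 1 added, the difference of -0.60 on the log2 scale (SE 0.11, 95% interval -0.87 to -0.34) did not pass the test (adjusted p = 0.082, limma). Without Control replicate 2 it was -0.72 and passed (adjusted p = 0.031, limma), without Control replicate 1 it was -0.48 and did not (adjusted p = 0.091, limma), and with the replicate block it passed (adjusted p = 0.045, limma). Against the median of Pom121 and Ndc1 in the same library, Nup210 stood at 0.117 and 0.0987 in Control and at 0.0616 and 0.0675 in Chd1KD. Those other transmembrane nucleoporins were closer to Control: Ndc1 had a ratio of 0.92 and Pom121 of 0.97, and neither passed.

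**Figure D3:**
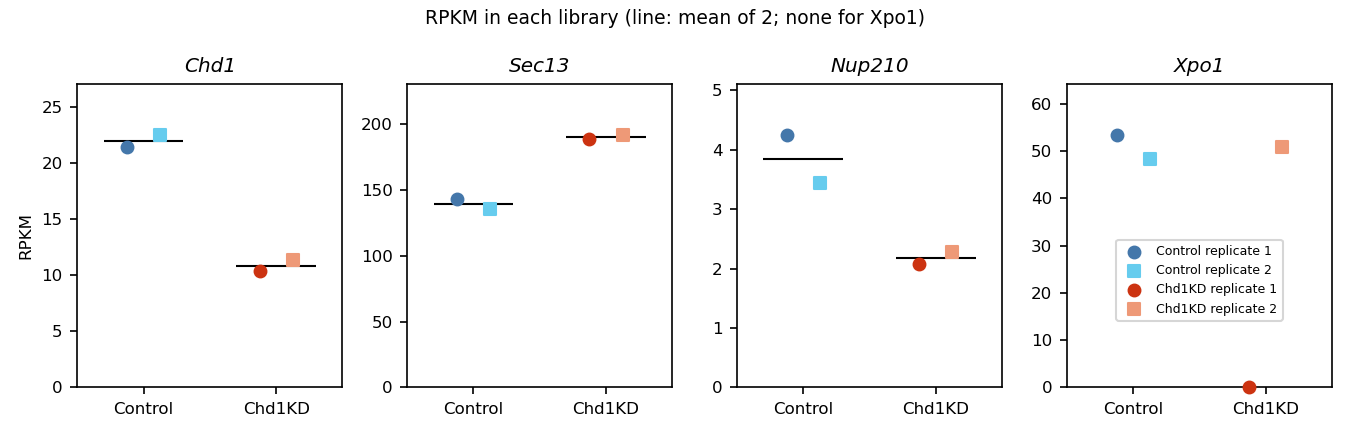
RPKM from 0 upward in each of the 4 libraries for Chd1, Sec13, Nup210 and Xpo1, with a line at the mean of 2 libraries except for Xpo1. The groups are apart for Chd1, Sec13 and Nup210, and the Xpo1 point of Chd1KD replicate 1 lies at 0 while the other 3 lie between 48.2 and 53.4.

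RefSeq sequences were found for 27 of the 32 members, and the same 250 bases were searched on both strands for 9 motifs. At least 1 start held the GC box in 18 of the 27 members, against 35.4% of all 27025 genes with a sequence, and CCAAT in 12, against 37.5%. A palindromic NRF1 motif was found for Nup107, Nup50, Nup62 and Ran, against 0.88% of all genes. The ETS motif was found for Nup155, Nup54 and Sec13 (3.23% of all genes) and the E box CACGTG for 6 members (6.86%). The cyclic AMP element TGACGTCA was found for Nup133 and Nup214 (1.77%), TATAAA for 4 members (14.3%) and the E2F motif for Nup210 (1.03%). The endoplasmic reticulum stress element, whose first letters are also counted as CCAAT, was found for no member (0.13%). The median count of CpG was 21.5 over the 30 member sequences and 6 over all 32851 sequences, which include noncoding genes and pseudogenes.

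The transport receptors and Ran were the most abundant role group, and none of the 6 passed. Ran was at 465.7 and 427.5 RPKM in the Control pair, and at 411.4 and 411.9 RPKM in the Chd1KD pair, a ratio of 0.92 (limma, adjusted p = 0.38). Its groups did not overlap, and the Control libraries differed from each other by more than the Control library nearest to Chd1KD did from either Chd1KD library. Kpnb1, importin beta, which carries most classical import cargo, gave 160.9 and 153.5 RPKM (Control) against 147.9 and 147.2 RPKM (Chd1KD), a ratio of 0.94 (limma, adjusted p = 0.43). Its adaptor Kpna2, importin alpha, stood at 227.0 and 203.1 RPKM in Control, and at 226.2 and 211.2 RPKM with the Chd1 shRNA, and its groups overlapped (ratio 1.02). Cse1l, the exportin that returns importin alpha to the cytoplasm, had a ratio of 1.01. Ipo7, an importin for ribosomal proteins and histones, was at 173.7 and 176.1 RPKM in the Control pair, and at 181.5 and 191.5 RPKM in the Chd1KD pair, a ratio of 1.07 (limma, adjusted p = 0.43).

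Xpo1, the main exportin for proteins with a leucine-rich export signal, lies on chromosome 11 from 23255909 to 23297597. It was listed at 53.4 and 48.2 RPKM in Control, at exactly 0 in Chd1KD replicate 1 and at 50.9 RPKM in Chd1KD replicate 2. Both of its transcripts were at 0 in the library at 0, and in the other 3 libraries the more abundant one held 81.6% to 88.4% of the gene. Whether this 0 is a failed estimate was not tested. Including Xpo1, 10 genes that averaged 5 RPKM or more were listed at 0 in at least 1 library. Of these genes, 5 were at 0 in Chd1KD replicate 1 and 2 to 4 in each other library. No fold is given for Xpo1 over all 4 libraries. Chd1KD replicate 2 stood at 1.003 times the Control mean, and the log2 fold change without Chd1KD replicate 1 was 0.0057 (limma, adjusted p = 0.99). Xpo1 was the only member listed at 0 at the gene level in any library. At the transcript level, 1 transcript each of Nup35 and Nup37 was listed at 0 in all 4 libraries and 1 of Nup88 in Control replicate 1.

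**Figure D4:**
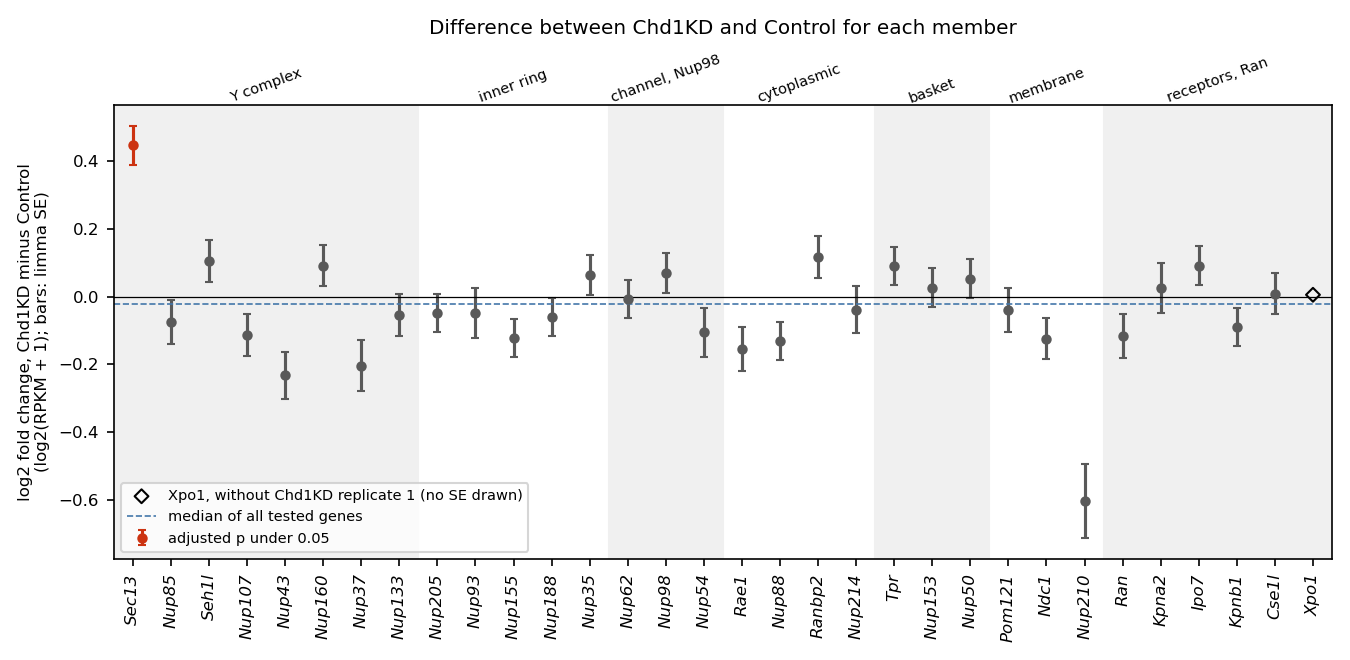
Log2 fold change (Chd1KD minus Control, on log2(RPKM + 1)) with the limma SE for each member by role, and the median of all tested genes as a dashed line. Sec13, at 0.45, is the only member past the threshold, Nup210 lies lowest at -0.60, and Xpo1 is drawn from 3 libraries.

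A wider list of 67 other genes of nuclear transport, chosen by role, gave 65 tested genes, and none passed (limma). Before adjustment, 12 of them had p under 0.05, 3 higher and 9 lower, against 18.5% of all tested genes. The median log2 fold change was -0.03. All 6 tested remaining pore subunits had positive values with ratios from 1.01 to 1.09, with Tmem33, an endoplasmic reticulum protein found at the pore, at 9.10 ± 0.071 and 9.93 ± 0.26 RPKM in Control and Chd1KD (SD, n = 2 each). Among 15 other importins, Tnpo2, a carrier of RNA-binding proteins, had a ratio of 1.15 (limma, adjusted p = 0.15) and Ipo8 of 0.93. Among 5 other exportins, Xpo4 had a ratio of 1.12 and Xpot, the tRNA exportin, of 0.96.

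Of 5 tested regulators of Ran, Rcc1, the chromatin-bound exchange factor that loads Ran with GTP, gave 34.4 and 33.3 RPKM (Control) against 30.1 and 29.6 RPKM (Chd1KD), a ratio of 0.88 (limma, adjusted p = 0.19). Nutf2, which returns Ran to the nucleus, had a ratio of 1.14. Of 16 mRNA export genes, Thoc5, a subunit of the THO complex, had a ratio of 0.83 (limma, adjusted p = 0.11) and Zc3h11a of 1.07. Of 8 genes of the SUMO machinery, Sumo3, a SUMO protein, had means of 82.1 RPKM in Control and 70.1 RPKM in Chd1KD (adjusted p = 0.19, limma).

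The 10 genes of the lamina and inner nuclear membrane, the layer to which pores are anchored, had 9 negative values, with a median of -0.15 on the log2 scale. No gene of this group passed (limma), and 5 had an unadjusted p under 0.05, each lower, where 11.3% of all tested genes were lower at that level. Lmnb2, a B-type lamin, stood at 14.2 and 13.4 RPKM in Control, and at 10.9 and 9.93 RPKM with the Chd1 shRNA, a ratio of 0.75 (limma, adjusted p = 0.089; 0.036 with the replicate block). Lbr, the lamin B receptor, had the positive value, with a ratio of 1.06. Beside these, all 16 tested DNA replication genes of a list chosen with their direction known had negative values (median -0.25), as did 14 of 16 G2 and mitosis genes (median -0.09). Their part in the values of the lamina and pore genes was not tested.

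**Figure D5:**
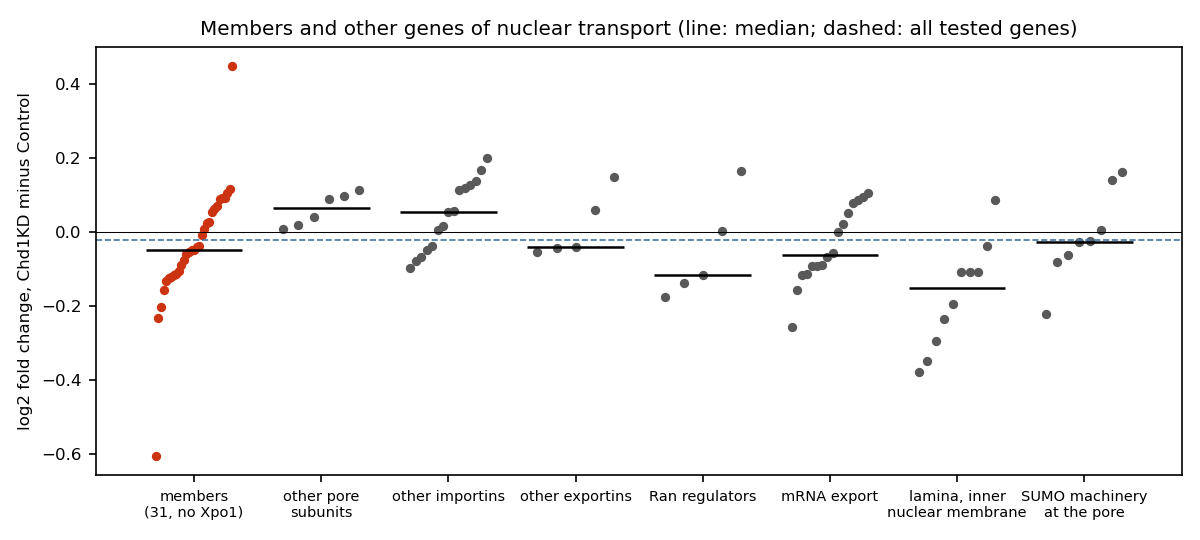
Log2 fold change (Chd1KD minus Control) of 31 members without Xpo1 and of 7 role groups of other nuclear transport genes, with 1 point per gene, a line at each median and a dashed line at the median of all tested genes. The lamina group has the lowest median, at -0.15, and among the members Sec13 and Nup210 lie furthest from 0.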

How the data were processed

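RPKM values per RefSeq transcript (30582 rows) were deposited by the authors for 2 Control and 2 Chd1KD libraries. The mm10 build, TopHat 1.4.1 and Cufflinks 1.3.0 are listed in the submitters' processing notes. Annotation release and strand setting: not given in the sources used here. Tables of single libraries duplicated the series table. Gene symbols came from NCBI's GRCm38.p6 table (30003 rows) or GENCODE M21 (180), 399 rows stayed unnamed (0.304% of summed RPKM), and RPKM was summed per gene. RPKM holds no counts, so no count model was used and no counting interval is given.

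Genes averaging 1 RPKM or more were fitted on log2(RPKM + 1) in limma 3.58.1 (R 4.3.3), with a variance trend and no covariate, Benjamini-Hochberg adjusted over all tested genes. The fit was tested on simulated data. With 2 libraries a group, exact permutation gives no p below 0.333 and was not used. Named genes were all members and, per role group of the wider list, the smallest p in each direction. A gene that this rule takes is not reported here. COPII and GATOR2 genes were added after Sec13 was seen. Members and lists were chosen with earlier results of these data known. Nup58 and Nup42 were matched by older symbols, Rangrf and Nup210l stayed under the filter, and the macrophage marker Cd68 was not matched. Alternatives covered pseudocount, filter, scaling, variance model, transcript choice, exact zeros, the replicate block and each library left out.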

Additional observations from a re-analysis of the deposited data

How the results depend on the processing

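Of the 32 members, 25 kept the sign of their fold change in every one of the 15 alternatives that could be fitted for them, and 7, all near 0 or at 0 in 1 library, did not. The log2 fold change of Nup62 turned to 0.0039 with libraries scaled to the same median and 0.015 with quantile normalization. With 1 library left out, ranges were -0.033 to 0.019 for Nup62, -0.13 to 0.037 for Nup93, -0.081 to 0.0034 for Nup214, -0.096 to 0.018 for Pom121, -0.055 to 0.11 for Kpna2, -0.039 to 0.058 for Cse1l and -5.69 to 0.0057 for Xpo1. The Xpo1 extreme is the fit without Chd1KD replicate 2, where the library listed at 0 stands alone and Xpo1 is the member that passes.

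The number of members that passed was 0 without a filter on low values, 0 without a variance trend and 0 with the most abundant transcript, and 0 to 2 with 1 library left out. The number over all tested genes, 47 here, was 0 without a filter (2153 at an unadjusted p under 0.05), 6 without a trend, 12 with the most abundant transcript, 71 at a mean of at least 5 RPKM, 92 with a robust variance model, 75 with zeros treated as missing and 49 to 236 with 1 library left out. Chd1 kept its log2 fold change of -0.96 without a filter, but not its call (adjusted p = 0.25, limma). Each lone library left in a group was assumed to vary like the others. The cause of these shifts was not tested.

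Replicate numbers carry no stated pairing. With the replicate block, 325 genes passed, among them 2 members (Sec13 and Nup210) and 1 gene of the wider list (Lmnb2). Deviations of same-numbered libraries from their group means correlated at 0.22 across genes. The 2 libraries per group and the unknown depth limit what could be detected.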
